A study of Rattus norvegicus with 2 samples.

Results

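Metallothioneins and the genes around them were examined as a group of 8 listed genes in the spleen of a cocaine-administered rat and of a control rat. The list held the metallothioneins Mt1, Mt2A and Mt3, the metal-sensing transcription factor Mtf1, the zinc exporter Slc30a1 and the zinc importers Slc39a8, Slc39a10 and Slc39a14. Members were found by gene symbol, and 7 of the 8 were measured among the 15037 genes with a symbol on the array. Slc39a10 was not analysed here. The list had been chosen by differences in log2 signal between these same arrays, so the values of the members are a description and were not tested.

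Total spleen RNA came from 1 male Sprague-Dawley rat given cocaine at 50 mg/kg by intraperitoneal injection daily for 7 days, and from 1 male control rat of the same strain, which the study's methods give as injected with saline. Both were 6 weeks old when dosing began and were killed on the day after the last injection. The title of the control sample reads "No Stimulation", while its treatment label repeats the cocaine protocol, and the series design and this title were the basis for treating it as the control. Each RNA was hybridized to 1 Clariom S array, which gives 1 log2 signal per transcript cluster, a set of short probes for the transcripts of a gene.

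With 1 array per group, no error or p-value could be given for any difference, and precision is limited by the number of arrays. Differences are given as cocaine minus control on the log2 scale, where 1 means a doubled signal after cocaine. The highest of 23 background features had a signal of 7.76 on both arrays, above the median transcript cluster (6.97), and a signal under it cannot be told from background by this strict measure. Markers of B cells were present at high signals (Cr2, the complement receptor of B cells, 16.20 on the cocaine array and 15.32 on the control array). So were those of red pulp macrophages, which fits the labelled tissue. Vcam1 had 15.35 on the cocaine array and 15.00 on the control array, and Slc40a1 had 14.63 on the cocaine array and 15.21 on the control array.

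Metallothioneins are small proteins rich in cysteine that bind zinc and copper, and also toxic metals such as cadmium. Their genes are switched on when zinc rises in the cell: zinc binds MTF-1, the product of Mtf1, which then binds short metal response elements (MREs) in their promoters. Exporters of the Slc30a (ZnT) family lower zinc in the cytosol, either across the cell surface or into organelles, and importers of the Slc39a (ZIP) family raise it. Glucocorticoids, oxidative stress and inflammatory cytokines also induce metallothioneins in many tissues.

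The promoters of the metallothioneins carry many copies of the core of the metal response element, and they are shown because Mt1 and Mt2A gave the clearest signals of their family. The 250 bases before the gene start are given 5′ to 3′ on the strand of the gene, from RefSeq (GRCr8), for Mt1 (chr19:10832976-10833225, minus strand), Mt2A (chr19:10838709-10838958, minus strand), Mt3 (chr19:10856081-10856330, minus strand) and, as the MTF-1 target outside the family, Slc30a1 (chr13:106021769-106022018, plus strand). Capitals mark matches to TGCACNC or TGCGCNC on either strand.
Mt1: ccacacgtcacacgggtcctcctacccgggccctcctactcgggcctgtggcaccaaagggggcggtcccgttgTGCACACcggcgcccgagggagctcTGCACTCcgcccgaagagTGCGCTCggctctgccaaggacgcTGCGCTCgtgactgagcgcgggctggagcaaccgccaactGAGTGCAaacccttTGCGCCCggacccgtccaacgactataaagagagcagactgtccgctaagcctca
Mt2A: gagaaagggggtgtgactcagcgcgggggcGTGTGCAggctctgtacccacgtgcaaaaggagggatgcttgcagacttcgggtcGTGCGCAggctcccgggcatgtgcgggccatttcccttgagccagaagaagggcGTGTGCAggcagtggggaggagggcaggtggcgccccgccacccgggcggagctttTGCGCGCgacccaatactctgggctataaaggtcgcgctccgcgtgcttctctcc
Mt3: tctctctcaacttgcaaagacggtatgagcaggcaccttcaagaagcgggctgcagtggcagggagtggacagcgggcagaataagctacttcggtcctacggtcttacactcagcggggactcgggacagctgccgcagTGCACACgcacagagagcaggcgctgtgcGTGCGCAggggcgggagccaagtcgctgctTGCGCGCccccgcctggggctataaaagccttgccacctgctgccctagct
Slc30a1: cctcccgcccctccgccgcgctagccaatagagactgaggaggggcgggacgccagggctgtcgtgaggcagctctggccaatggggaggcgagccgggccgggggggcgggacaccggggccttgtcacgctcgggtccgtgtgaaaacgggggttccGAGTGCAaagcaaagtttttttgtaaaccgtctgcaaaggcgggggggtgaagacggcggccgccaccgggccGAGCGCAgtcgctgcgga

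Matches were counted in a window from 250 bases before to 50 after the start, on both strands, overlaps between the 2 spellings allowed. Mt1 had 6 cores, a number reached by 0.0388% of 33469 promoters. Mt2A had 4, as 0.439% of promoters had or exceeded, and Mt3 had 3 (1.68% of promoters had at least 3). Slc30a1 and Mtf1 each had 2 (6.36% had at least 2), and Mt4, the metallothionein of stratified epithelia, had 1 (24.2% had at least 1). The core nearest to the start began 55 bases before it in both Mt1 and Mt2A, and 51 bases before it in Mt3. No core was found for Slc39a8, whose window starts from a transcript start 84505 bases inside the outer start of the gene. Of the listed genes, Slc39a14 was not searched.

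A further motif was shared by Mt1 and Mt2A. The core of the antioxidant response element (ARE), TGACNNNGC, which NRF2 binds in partnership with small MAF proteins, was found once each in Mt1 and Mt2A, and 12.1% of all promoters held at least 1.
Mt1, 101 to 93 bases before the start: TGACTGAGC
Mt2A, 237 to 229 bases before the start: TGACTCAGC
In Mt1, 1 base lay between this match and a metal response core. Neither Mt3 nor Mt4 held this motif in the window, while Slc30a1 and Slc39a8 held 1 each and Mtf1 held 2. The letters TATAAA stood 31 or 32 bases before the start in Mt1, Mt2A and Mt3 and 37 before it in Mt4 (14.2% of promoters held them at any place on either strand).

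**Figure D1:**
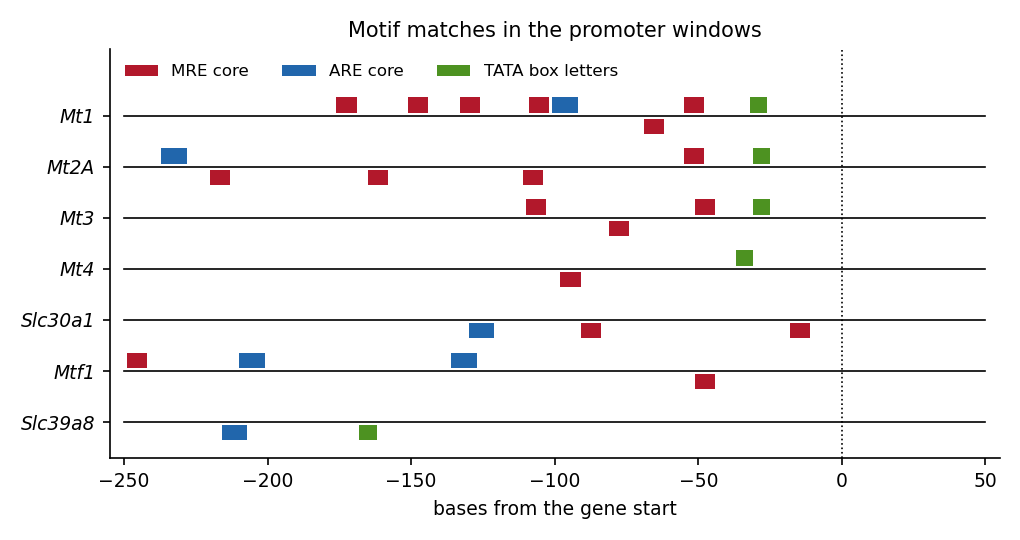
Matches to the metal response core (MRE), the antioxidant response core (ARE) and TATAAA in the promoter windows of 7 genes, by distance in bases from the gene start (dotted line). Boxes above a line are matches on the strand of the gene and boxes below it on the opposite strand. The MRE count is 6 for Mt1, 4 for Mt2A, 3 for Mt3 and 0 for Slc39a8.

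The lowest difference among the members was that of Mt1, the metallothionein found in most cell types. Its signal was 7.77 on the cocaine array and 10.33 on the control array. The cocaine array thus lay barely above the highest background feature, and the control array far above it. The difference was -2.56, which is 5.89-fold lower on the cocaine array, and it ranked 137 from the lowest among 15037 genes.
Mt2A, which is induced together with Mt1 in most tissues, had a signal of 9.82 on the cocaine array and 10.98 on the control array. Both were well above background. The difference was -1.16, or 2.23-fold lower on the cocaine array.
Mt3, a metallothionein best known from brain, where it was found as an inhibitor of neuronal growth, had a signal of 4.02 on the cocaine array and 5.02 on the control array. Both values lay under the highest background feature, so that its difference of -1.0005, which only just reaches 2-fold, has no interpretable size or direction. Mt4, measured beside the listed genes, was likewise under background on both arrays (5.11 on the cocaine array and 5.50 on the control array).
Summed on the linear scale over the 4 metallothioneins measured, the signal on the cocaine array was 0.347 of that on the control array (1170 on the cocaine array and 3390 on the control array). The transcripts of Mt1 and Mt2A are closely related in sequence, and probes for either may pick up the other or a processed copy, so their split between the 2 genes is uncertain. Because whole spleen was used, fewer cells carrying these transcripts and less transcript per cell cannot be told apart.

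**Figure D2:**
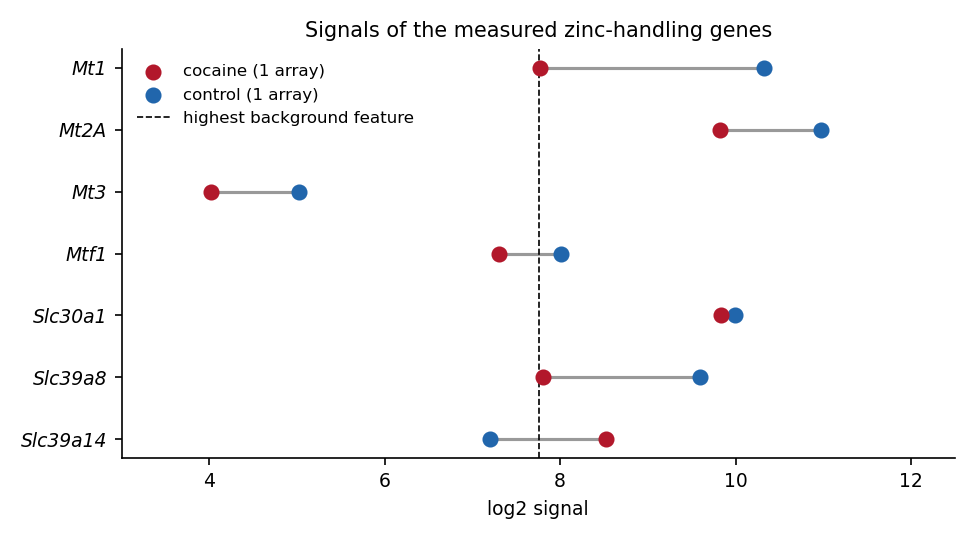
Log2 signal of the 7 measured members on the cocaine array (red) and the control array (blue), 1 array each, with the highest background feature (7.76) as a dashed line. Mt1, Mt2A and Slc39a8 lie to the left on the cocaine array with both points right of the dashed line, and Slc39a14 lies to the right on the cocaine array.

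The 4 metallothionein genes stand next to one another on chromosome 19 in the RefSeq annotation, and the genes on either side of them gave signals of nearly equal size on both arrays. Nup93, a nuclear pore protein on the Mt1 side, had signals of 9.01 on the cocaine array and 9.13 on the control array, a difference of -0.12. On the Mt4 side the next gene, Bbs2, was under the highest background feature on both arrays (7.40 on the cocaine array and 7.29 on the control array). Beyond it, Ogfod1, a hydroxylase of a ribosomal protein, differed by 0.08 and Nudt21, a cleavage factor of messenger RNA ends, by 0.10. A difference of 2-fold or more was therefore found in this stretch for Mt1 and Mt2A above background, and not for the 3 flanking genes measured above background.

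Mtf1 encodes the zinc-sensing factor itself. Its signal was 7.30 on the cocaine array, under the highest background feature, and 8.01 on the control array. The difference was -0.71, within 2-fold, and at least 1.20-fold lower on the cocaine array once the lower signal was raised to background.
Slc30a1 encodes ZnT1, which exports zinc across the cell surface and is a classic target of MTF-1. Its signals were 9.84 on the cocaine array and 9.99 on the control array, close together and both above background. The difference was -0.15 (1.11-fold), smaller in size than those of Mt1 and Mt2A. The promoter window of Slc30a1 holds 2 metal response cores, and 6.36% of all promoters hold at least 2. Whether these cores act in the spleen was not tested.

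Slc39a8 encodes ZIP8, which brings zinc, manganese, iron and cadmium into the cell. Its signal was 7.80 on the cocaine array and 9.60 on the control array. As for Mt1, the cocaine array lay just above the highest background feature. The difference was -1.80, or 3.47-fold lower on the cocaine array, and it ranked 303 from the lowest among the 15037 genes.
Slc39a14 encodes ZIP14, the closest relative of ZIP8, which carries the same metals and is induced in liver by interleukin-6 in mice. Its signal was 8.52 on the cocaine array and 7.20 on the control array, where it lay under background. The difference was 1.31, or 2.49-fold higher on the cocaine array, and at least 1.69-fold higher with the control signal raised to background. The 2 related importers thus differed between the arrays in opposite directions.

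Of the 7 measured members, the signals as deposited put 4 past 2-fold downwards on the cocaine array (Mt1, Slc39a8, Mt2A and Mt3) and 1 upwards (Slc39a14). With signals under background raised to it, 3 were lower and 0 higher, since Mt3 has both signals under background and Slc39a14 is then within 2-fold. Among all 15037 genes, 4.97% were past 2-fold downwards and 2.28% upwards as deposited, and nothing is read from the count of members, since they were picked with these values known. When the 75th percentile of each array was set equal, the genes split into 657 lower and 509 higher, against 748 lower and 343 higher as deposited. The median over all genes was 0.04. The median member was Mt3 (-1.0005), with both signals under background, so nothing is read from the median of the members. Both signals were above the highest background feature for 4 members, Mt1, Mt2A, Slc30a1 and Slc39a8, and 3 of these 4 passed 2-fold downwards and none upwards, where 6.96% of the 6511 genes with such signals were lower and 2.15% higher. At 4-fold only Mt1 remained, and 1.64% of all genes were lower and 0.0333% higher at that size. At 1.5-fold, 5 members were lower and 1 was higher, beside 11.7% and 11.6% of all genes.

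**Figure D3:**
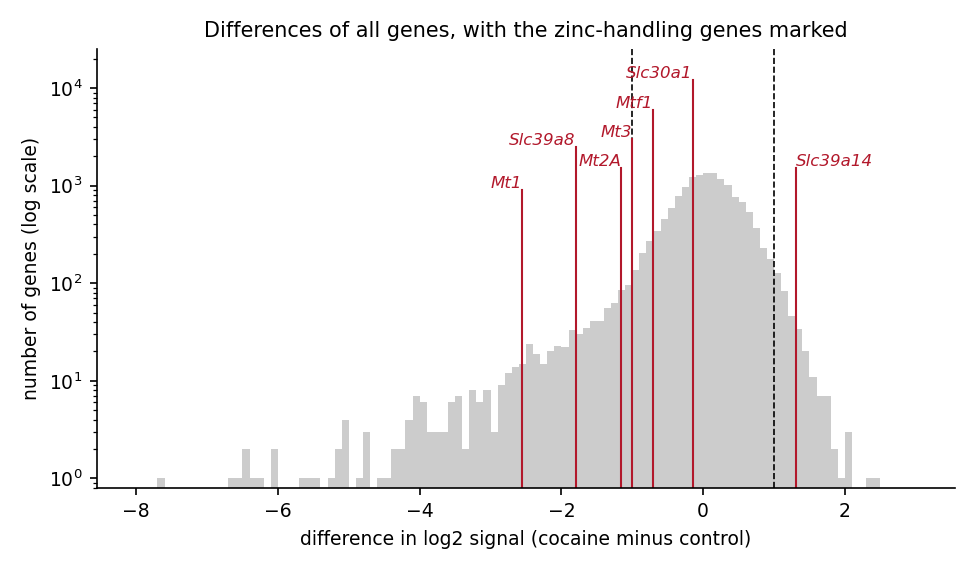
Number of genes (log scale) by difference in log2 signal, cocaine minus control, for all 15037 genes with a symbol (grey), with dashed lines at 2-fold. Red lines mark the 7 members at their differences, from -2.56 for Mt1 to 1.31 for Slc39a14, and their heights carry no value.

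In the ZnT family all 10 genes were measured, 6 of them above background on both arrays, and the median difference was 0.32, with 7 of 10 above 0. Of those above 0, Slc30a2, Slc30a3 and Slc30a8 had both signals under background. Among all 15037 genes, 7994 were above 0. None was past 2-fold upwards, and the 1 past it downwards as deposited, Slc30a10 (-1.18), a manganese exporter, had both signals under background (5.23 on the cocaine array and 6.41 on the control array).
The exporters above background that load zinc into the Golgi and vesicles had positive differences within 2-fold. Slc30a5 (ZnT5) had signals of 11.25 on the cocaine array and 10.60 on the control array, a difference of 0.66. Its partner Slc30a6 differed by 0.40 and Slc30a7, which works beside them, by 0.45. Slc30a4, an exporter into vesicles, had signals of 9.57 on the cocaine array and 8.87 on the control array (0.69). Slc30a9, a transporter of mitochondria, was the other member of the family with a negative difference above background beside Slc30a1 (-0.47, with 11.68 on the cocaine array and 12.15 on the control array).

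In the ZIP family 12 of 14 genes were measured, and the median difference was 0.34, with 9 of 12 above 0. Among all 15037 genes, 7994 were above 0. Of the importers above 0, Slc39a2, Slc39a4, Slc39a11 and Slc39a12 had both signals under background. Slc39a3, Slc39a7 and Slc39a14 had the control signal under it. Over the 4 importers with both signals above background, the median was -0.04. Slc39a8 was the 1 importer past 2-fold downwards on the cocaine array, and Slc39a14 the 1 past it upwards as deposited, though not with its control signal raised to background. Of the other importers with both signals above background, Slc39a1, which takes up zinc at the cell surface in many tissues, differed by -0.09, Slc39a6 (signals of 10.69 on the cocaine array and 10.57 on the control array) by 0.12 and Slc39a9 by 0.00. Slc39a7, which releases zinc from the endoplasmic reticulum and Golgi, had a signal of 8.32 on the cocaine array and 7.61 on the control array, a difference of 0.71 that is at least 1.48-fold once the control signal is raised to background. The largest remaining difference was that of Slc39a12 (0.93), with both signals under background.
Across 5 other scalings of the arrays, 7 of 10 exporters were above 0 in every case, with medians from 0.26 to 0.41, while 8 to 10 of 12 importers were, with medians from 0.29 to 0.43. The median over all genes ranged from -0.02 to 0.13 under these scalings. With signals under background raised to it, the median of each of the 2 families was 0.0. Over the 6 exporters with both signals above background, the median was 0.42 as deposited.

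**Figure D4:**
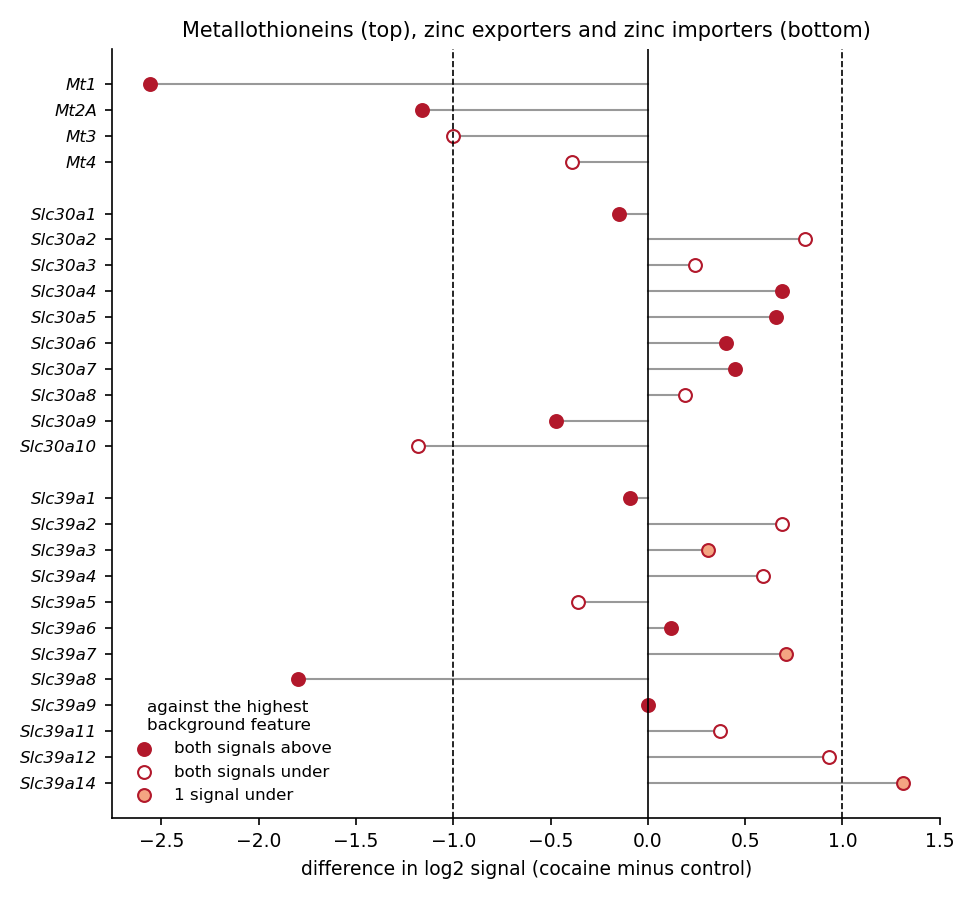
Difference in log2 signal, cocaine minus control, for the 4 metallothioneins, 10 zinc exporters and 12 zinc importers measured, with dashed lines at 2-fold. Filled circles have both signals above the highest background feature, pale ones have 1 signal under it and open ones both. Mt1 (-2.56) and Slc39a8 (-1.80) reach farthest left, and Slc39a14 (1.31) farthest right.

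Genes that MTF-1 is known to regulate in mice, other than the metallothioneins and Slc30a1, were set beside the members. Whether MTF-1 raises or lowers each of them was not taken into account, and its part in their differences was not tested. Gclc, the catalytic subunit of the first enzyme of glutathione synthesis, had a signal of 8.09 on the cocaine array and 10.43 on the control array, and was 5.07-fold lower (-2.34). Selenow, a small selenoprotein, was 2.61-fold higher, with 13.02 on the cocaine array and 11.64 on the control array. Ndrg1 (-0.72), Csrp1 (0.08) and Txnrd2 (-0.71, both signals under background) were within 2-fold. The median of these 5 genes was -0.71 as deposited, which is the value of Txnrd2. It was 0.0 with signals under background raised to it, and -0.32 over the genes with both signals above background.
All genes with many metal response cores, the metallothioneins included, were counted in the same way. Of 12435 genes with a symbol and a promoter, 82 held at least 4 metal response cores, and 5 of these (6.10%) were past 2-fold downwards on the cocaine array as deposited and 4 (4.88%) upwards, beside 5.15% and 2.26% of all 12435. Of the 330 genes with at least 3 cores, which include Mt1, Mt2A and Mt3, 7.27% were lower and 3.33% higher. These metallothioneins were picked by the same differences, so nothing is read from the shares. Mt1 and Mt2A were 2 of the 5, and the others were the cation transporter Slc22a4, Clec2l and Cul4a, all chosen for mention after their values were seen. All of these others were under background on the cocaine array. Slc22a4 had 6.27 on the cocaine array and 10.50 on the control array. Clec2l had 5.89 on the cocaine array and 7.79, barely above background, on the control array. Cul4a had 7.34 on the cocaine array and 8.93 on the control array. The zinc importer Slc39a7, with 4 cores, was also among the 82 and differed by 0.71, its control signal being under background. The median difference of the 82 genes was 0.05.

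Lists of genes that respond to other inducers of metallothioneins were set beside the members. Among all 15037 genes, 4.97% were past 2-fold downwards and 2.28% upwards as deposited. Nothing is read from the counts of these lists, which were chosen with results of these data known. Of 8 glucocorticoid-induced genes, 1 was past 2-fold upwards as deposited (Zbtb16, 1.20, both signals under background) and none downwards. Fkbp5 and Tsc22d3, standard readouts of the glucocorticoid receptor, differed by 0.33 and 0.40, and Dusp1 by -0.99. The list had a median of 0.05.
Of 8 genes of the oxidative stress response, 2 were at least 2-fold lower, and both build glutathione. They were Gclc, also counted among the MTF-1 genes, and its partner subunit Gclm. Gclm had a signal of 9.27 on the cocaine array and 12.81 on the control array (-3.54). Heme oxygenase Hmox1 (-0.37), thioredoxin reductase Txnrd1 (0.47) and the cystine transporter Slc7a11 (0.49) were within 2-fold, as was Osgin1 (0.59, both signals under background), and the list median was 0.02.
Of 8 genes of acute phase and cytokine responses, Il6 was past 2-fold upwards as deposited, with 8.60 on the cocaine array and 6.98 on the control array, where it lay under background (1.62, at least 1.79-fold and so within 2-fold once the control signal is raised to background). Il1b (0.80), Socs3 (0.74, both signals under background) and Stat3 (0.60) were within 2-fold, and the median was 0.52.

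All 10 red cell markers were past 2-fold downwards on the cocaine array as deposited, beside 4.97% of all genes, with a median of -6.12. With signals under background raised to it, 9 of 10 were (median -5.78). The 6 with both signals above background differed by -6.64 (Hemgn) to -4.10 (Tfrc). The other 4 were under background on the cocaine array, so that Epb42 was at least 73.7-fold lower, Rhag at least 46.3-fold, Gata1 at least 3.34-fold and Klf1 at least 1.27-fold. Slc4a1, Epb42, Alas2, Rhag, Tfrc and Klf1 among them had been picked by the study from these same arrays, so that the direction of this list is not independent evidence. Summed on the linear scale, they gave 17800 on the cocaine array and 859000 on the control array. Their part in the lower signals of Mt1, Mt2A and Slc39a8 was not tested.
Among 6 genes of neutrophils and monocytes, S100a8 (-1.12) and S100a9 (-1.39) were past 2-fold downwards, beside 4.97% of all genes. These 2 encode a calcium- and zinc-binding protein pair of neutrophils. Csf1r (-0.64), Lyz2 (-0.15), Elane (0.23, both signals under background) and Ly6c (0.07) were within 2-fold. The median was -0.40, and -0.64 over the genes with both signals above background. None of 5 red pulp macrophage genes was past 2-fold, with a median of -0.37. Vcam1 differed by 0.35, while Slc40a1 (-0.58), Cd163 (-0.37), C1qa (-0.75) and C1qb (-0.26) were below 0. None of 5 T cell genes or 2 measured B cell genes was past 2-fold as deposited either, with medians of 0.26 and 0.76. With 75th percentile centring, centring on clusters above the median or quantile normalization, 1 T cell gene was past 2-fold upwards. The 6 markers of fibroblasts and endothelium had a median of -0.18. The part of these cells in the zinc-handling signals was likewise not tested.

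**Figure D5:**
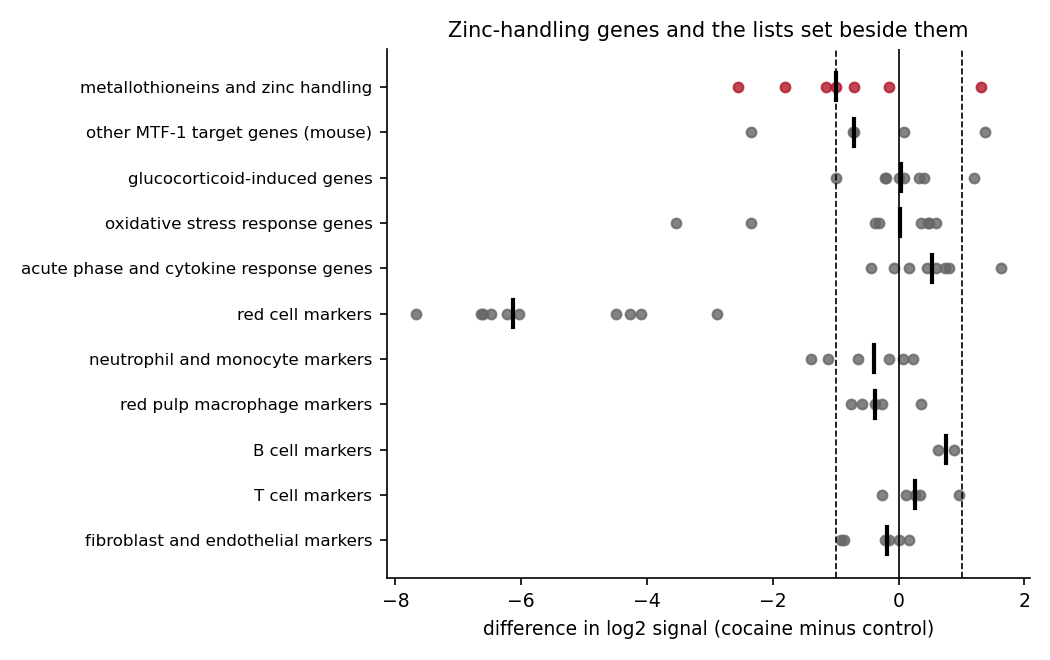
Difference in log2 signal, cocaine minus control, of each measured gene (points) in the zinc-handling list (red) and in 10 other lists (grey), with black bars at the list medians and dashed lines at 2-fold. Signals are as deposited, including those under background. The zinc-handling genes lie between -2.56 and 1.31, and the 6 red cell markers with both signals above background between -6.64 and -4.10.

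The genes with the most similar pair of signals were taken as those at the shortest Euclidean distance over the 2 log2 signals, for the 4 members above background on both arrays. For Mt1 these were Wdhd1 (7.92 on the cocaine array and 10.24 on the control array), Net1 and Cenpi, at distances of 0.17 to 0.23. Slc39a8 lay beside Abcb6, a porphyrin transporter (7.85 on the cocaine array and 9.60 on the control array, distance 0.048), followed by Lmna and Traf3ip1. Mt2A lay beside Mthfd2, Lypd8l1 and Rnf167, and Slc30a1 beside Stxbp2, Ykt6 and Ei24. Within a distance of 0.25 there were 3 genes for Mt1, 5 for Slc39a8, 17 for Mt2A and 184 for Slc30a1, so that over 2 arrays a near neighbour of Slc30a1 is common and one of Mt1 is not.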

How the data were processed

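Log2 signals per transcript cluster of 2 Clariom S rat arrays, 1 per group, were used as deposited by the authors. The RNA had been extracted in TRIzol, cleaned on RNeasy columns and freed of DNA. Methods of background correction, summarisation and normalization, and the genome build, were not given in the sources used here, and the log2 scale was taken from the range of the values. Control features (1646 of 24834) were left out, which left 23188 transcript clusters. Of these, 15049 had 1 gene symbol, all matched by Entrez identifier to RefSeq (GRCr8), and stood for 15037 genes, the cluster with the highest mean signal representing a gene. Each member had 1 cluster. No column was left out (0). Differences were cocaine minus control, counted at 2-fold as in the study, with no test. Where 1 signal was under the highest background feature, a fold after raising it to that feature is given as "at least".

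The members and lists were chosen with earlier results of these data known. The naming rule took all members, the genes of each list past 2-fold and up to 4 others with the largest differences, and the 3 nearest genes of each member above background. It was not filled for every list, and genes outside it were named after their values were seen. Alternatives were 5 scalings (median, 75th percentile, clusters above the median, quantile, loess with a span of 0.3), floors, filters, other thresholds and the mean over clusters. Scripts were checked on simulated arrays with 200 changed genes, and ran under python 3.11.15 with pandas 2.3.3, statsmodels 0.14.6, numpy 2.4.6 and matplotlib 3.10.9.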

Additional observations from a re-analysis of the deposited data

How the results depend on the processing

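With 1 array per group, no leave-one-out analysis could be run, and no paired analysis was possible because each group has 1 array. Signals near 7.76 limit Mt1 and Slc39a8 on the cocaine array. Mt1 stayed between -2.58 and -2.46, Slc39a8 between -1.82 and -1.70, Mt2A between -1.19 and -1.06, Mtf1 between -0.75 and -0.26 and Slc30a1 between -0.17 and -0.04 under the scalings, floors and cluster choice tried, none of which moved these 5 genes across the 2-fold line. The mean over clusters could change none of them, since each had 1 cluster. Neither floor could change Mt1, Mt2A, Slc39a8 or Slc30a1, whose signals lay above both floors, so for these 4 genes only the scalings were informative. Mt3 fell short of 2-fold with 75th percentile centring or centring on the clusters above the median of both arrays (-0.91 each), and was 0 with a floor at the highest background feature or at the 25th percentile, since both of its signals were then at the floor. Slc39a14 was 0.76 with the background floor and ranged up to 1.41 otherwise. The median of the 4 metallothioneins was -0.99 with either of those centrings, -0.58 with the background floor and -0.64 with the 25th percentile floor. The exporters and the importers each had a median of 0.0 with the background floor. With the 25th percentile floor these medians were 0.07 and 0.06.
Counts of the members moved as follows. At 4-fold, 1 was lower and 0 were higher. The 1 higher member was lost (0) with the background floor and when both signals had to be above background, a filter added after the data were seen. At 4-fold, 1 metallothionein, 0 exporters and 0 importers were lower, and 0 importers higher. At 1.5-fold, 3 exporters and 5 importers were higher, beside 11.6% of all genes. Of these, Slc30a2, Slc39a2, Slc39a4 and Slc39a12 had both signals under background. The other importers counted, Slc39a7 and Slc39a14, had the control signal under it. The 1 lower exporter (Slc30a10) was lost (0) with the background floor and with each filter on low signals. Higher importers numbered 2 with the 75th percentile centring or that on clusters above the median, and 0 with the background floor or with both signals above background.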

Other observations

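Enzymes that hold zinc at their active site differed widely between the arrays. Of 8 measured, 4 were past 2-fold downwards on the cocaine array, beside 4.97% of all genes. These were the carbonic anhydrases Car1 (-5.27) and Car2 (-5.08), the heme synthesis enzyme Alad (-3.80) and sorbitol dehydrogenase Sord (-1.92). Car1, Car2 and Alad are abundant in red cells. Sod1, the cytosolic superoxide dismutase that holds both copper and zinc, had signals of 12.26 on the cocaine array and 12.52 on the control array (-0.27), and the formaldehyde-clearing enzyme Adh5 differed by 0.31. Mme had 8.42 on the cocaine array and 7.69 on the control array, where it lay under background (0.73, at least 1.58-fold higher), and Alpl (0.77) had both signals under background. The median of the list was -1.09, beside 0.04 over all genes. Nothing is read from this count or median, since the list was chosen with results of these data known.

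Copper, the other metal bound by metallothioneins, was followed over 12 measured genes, whose median was -0.17, and of which 3 were past 2-fold downwards as deposited and none upwards. Among all genes, 4.97% were lower and 2.28% higher. The importer Slc31a1 (CTR1) had a signal of 9.50 on the cocaine array and 10.74 on the control array, 2.36-fold lower. The exporting pump Atp7b had 6.73 on the cocaine array, under background, and 8.98 on the control array (-2.24, at least 2.33-fold lower), while its relative Atp7a differed by 0.25. Slc31a2 (-1.15) had both signals under background. Ceruloplasmin (Cp), the copper ferroxidase of plasma, had 14.28 on the cocaine array and 13.29 on the control array, a difference of 1.00 when rounded that lay just within 2-fold. The chaperones Atox1 (0.31), Ccs (-0.32) and Cox17 (-0.08), and Sco1 (-0.55), were within 2-fold.

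Tissues next to the spleen were checked by their markers. Of 7 liver genes, Ttr was past 2-fold upwards as deposited (2.44) but at least 1.75-fold higher with its control signal raised to background, Alb (-2.20) had both signals under background, and all 7 pancreas genes were under background on both arrays with none past 2-fold. Of 4 fat genes, Adipoq had 6.22 on the cocaine array, under background, and 8.28 on the control array (at least 1.44-fold lower), and Fabp4 differed by -0.25.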
